A study of Cardamine sp. SIM-2007 with 7 samples.

Results

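WRKY transcription factors were followed in young inflorescences of Cardamine kokaiensis, a wild plant of the same family as Arabidopsis, whose plants were led to form 3 kinds of flower. The genes were taken as every probe set of the Arabidopsis ATH1 array that the platform annotation ties to 1 gene whose symbol is WRKY and a number. This gave 6 genes, WRKY6, WRKY20, WRKY22, WRKY42, WRKY47 and WRKY53, each with 1 probe set, out of 13350 distinct genes on the 13513 probe sets with 1 gene. Cleistogamous (CL) flowers, which stay closed and self-pollinate, came from plants chilled for 28 days after germination. Intermediate (INT) flowers came from 14 days of chilling after germination. Chasmogamous (CH) flowers, which open, came from 14 days of chilling before germination. Each flower type had 2 RNA arrays, described as biological replicates, and each RNA sample pooled 160 first-inflorescence primordia that carried the primordia of the first to the eighth flower. Leaf genomic DNA from unchilled plants was hybridized to 1 further array. No strain or genotype was given beyond the species, and flower type and chilling regime cannot be told apart in this design.

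WRKY proteins are plant transcription factors named after a short, nearly invariant amino acid motif in their DNA-binding domain, which folds around a zinc ion and binds the W-box, a DNA element in the promoters of many defence genes. In Arabidopsis thaliana, from which the roles given here are known, the family acts mainly downstream of MAP kinases and salicylic acid in immunity and leaf senescence, and some members act in nutrient stress, trichomes, seeds and flowering. Members are sorted into classes by the number of WRKY domains and the type of zinc finger: WRKY20 belongs to class I, with a pair of domains, WRKY6, WRKY42 and WRKY47 to class IIb, WRKY22 to class IIe and WRKY53 to class III. The members best known from trichomes, seeds, pollen, stems and flowering time were not among the genes that the annotation names as WRKY, so the genes followed here are mainly those of stress, senescence and nutrition.

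None of the 6 WRKY genes passed the test between any 2 flower types, and neither did any other of the 22746 probe sets tested. Of the 18 WRKY differences, 10 changed sign under at least 1 alternative, mostly when a single array was left out. WRKY20, WRKY22 and WRKY53 had lower values on both CL than on both CH arrays, and WRKY20 and WRKY53 also than on both INT arrays. Over all probe sets, 14.8% were lower without overlap in CL than in CH and 16% in CL than in INT. WRKY42 had lower values on both INT arrays than on the other 4. Over all, 17.8% were lower without overlap in INT than in CH and 17% in INT than in CL. The share of probe sets with both arrays of a type beyond the other 4 was not counted, here or below. The probe sets also differed in how well they bound Cardamine DNA. On the genomic DNA array, WRKY22 had an intensity of 1064, WRKY6 of 904.1, WRKY53 and WRKY47 of 601.9 each and WRKY20 of 535.9, all above the median of 397.7 over the 22746 probe sets tested. WRKY42 had 48.2, at percentile 9.98, so its RNA values come from a probe set that gave little signal with the species' own DNA.

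Levels are given as log2(intensity + 28.2) after quantile normalization, where the added constant damps the differences of dim probe sets. All 6 genes had a mean level over the 6 RNA arrays below the median of the probe sets tested, with a median of 7.50 for these 6 against 8.01 over probe sets with 1 gene and 8.22 over all tested. Mean levels were 8.15 for WRKY20, 8.12 for WRKY22, 7.63 for WRKY53, 7.37 for WRKY47, 6.18 for WRKY42 and 5.62 for WRKY6. Those of WRKY20 and WRKY22 were above the median of 8.01 over probe sets with 1 gene. A level on an array depends on how well each probe binds as well as on the amount of RNA, so these values do not rank the genes by abundance. In tissue of this kind, fewer cells expressing a gene and less RNA per cell cannot be told apart.

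WRKY6 stood out for a bright genomic DNA signal beside a dim RNA signal. Its genomic DNA intensity lay at percentile 83.0, whereas its mean RNA level lay at percentile 5.59 of all probe sets and at percentile 3.39 of the 11373 probe sets with a genomic DNA intensity above the median. WRKY22 had the brighter genomic DNA signal, at percentile 87.7, and a mean RNA level at percentile 47.8. WRKY42 was dim on both, at percentile 9.98 for genomic DNA and 14.0 for RNA.

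**Figure D1:**
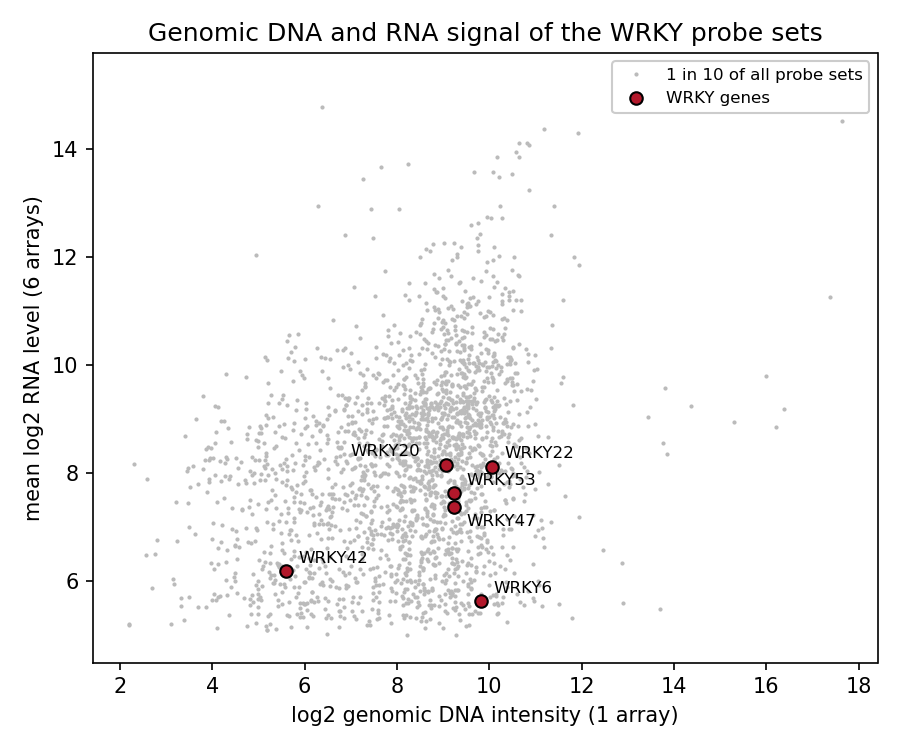
Mean log2 RNA level over the 6 RNA arrays (vertical axis) against log2 genomic DNA intensity on 1 array (horizontal axis) for the 6 WRKY genes (red) and for 1 in 10 of all probe sets (grey). WRKY6 lies at the bottom of the cloud among probe sets with bright genomic DNA, and WRKY42 lies to the lower left.

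Among the regulators of senescence and immunity, WRKY53, which promotes leaf senescence in Arabidopsis, had intensities of 169.9 and 95.6 in CL, 229.1 and 181.5 in INT, and 180.4 and 198.3 in CH (replicate 1 first, here and below). Both CL arrays lay below both INT and both CH arrays, and CL replicate 2 was the lowest of the 6. Its level was 7.29 ± 0.40 in CL and 7.76 ± 0.18 in CH (SD, n = 2 each), so that CL minus CH was -0.47 (95% interval -1.55 to 0.61). Against the 7.86 ± 0.27 of INT, the CL difference was -0.57, with an interval of -1.65 to 0.51. INT minus CH was 0.10, less than the SD of either group. Without CL replicate 2 the CL minus CH difference was -0.19, and without CL replicate 1 it was -0.74, so the size of the difference depended on single arrays.

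WRKY22, which acts below the MAP kinase cascade that answers bacterial flagellin, varied least among the 6 genes, with a range over all arrays of 0.59 log2 units. Its intensities were 214.0 and 209.9 in CL, 217.0 and 321.6 in INT, and 308.1 and 249.0 in CH. The CL arrays lay below both CH arrays by a small margin, while the normalized INT levels spread across both groups; in the values as deposited both INT arrays were above both CL arrays. The level was 7.92 ± 0.12 in CL and 8.23 ± 0.10 in CH (SD, n = 2 each), so that CL minus CH was -0.31 (interval -1.21 to 0.59). INT averaged 8.20 ± 0.32, which put INT minus CH at -0.03 and CL minus INT at -0.28.

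WRKY6, a regulator of senescence, defence and the phosphate response, was dim on every array. Its intensities were 21.0 and 21.5 in CL, 5.83 and 66.3 in INT, and 10.4 and 20.4 in CH. On 5 of the 6 arrays it was below the added constant of 28.2, and INT held both the highest and the lowest value. The levels were 5.63 ± 0.10 in CL, 5.80 ± 0.97 in INT and 5.45 ± 0.30 in CH (SD, n = 2 each). CL minus CH was 0.18 and INT minus CH 0.35, with an interval for INT minus CH from -0.69 to 1.39. Without INT replicate 2, INT minus CH was -0.33.

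Of the other class IIb members, WRKY42, which represses a phosphate exporter gene in Arabidopsis roots, had intensities of 126.1 and 34.9 in CL, 13.6 and 24.6 in INT, and 58.1 and 47.3 in CH. Both INT arrays lay below every CL and CH array, and CL replicate 1 stood above the rest. The level was 6.64 ± 0.85 in CL, 5.55 ± 0.19 in INT and 6.36 ± 0.06 in CH (SD, n = 2 each). CL minus INT was 1.09, the largest of the 18 differences with the constant of 28.2, with an interval of 0.0074 to 2.17 and an unadjusted p of 0.0488 in limma, which became 0.985 when adjusted over all probe sets. It was 0.49 without CL replicate 1 and 1.69 without CL replicate 2. Both INT intensities lie below the added constant, and the size of the difference depended on it, at 1.84 with a constant of 1 and 0.26 with a constant equal to the median RNA value, where that of WRKY20 (-0.37) was larger. INT minus CH was -0.81, with an interval of -1.89 to 0.27, and CL minus CH was 0.28, or -0.32 without CL replicate 1. This is also the probe set with the dimmest genomic DNA signal of the 6.

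WRKY47, linked in Arabidopsis to aluminium tolerance and cell wall genes, differed most between replicates. It had intensities of 166.1 and 143.4 in CL, 93.9 and 276.3 in INT, and 61.4 and 155.1 in CH. The CL arrays nearly coincided, whereas replicate 2 lay more than 1 log2 unit above replicate 1 in both INT and CH, so the 3 groups overlapped. The level was 7.53 ± 0.02 in CL, 7.57 ± 0.92 in INT and 7.02 ± 0.79 in CH (SD, n = 2 each). CL minus CH was 0.51, with an interval of -0.94 to 1.96, and INT minus CH was 0.55. Without CH replicate 1 these were -0.05 and -0.0019, and without INT replicate 2 INT minus CH was -0.10.

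WRKY20, the only class I member here, had intensities of 182.1 and 178.4 in CL, 246.5 and 400.1 in INT, and 286.6 and 298.0 in CH. Both CL arrays were lower than all 4 other arrays, and INT spread around CH. The level was 7.72 ± 0.11 in CL and 8.30 ± 0.12 in CH (SD, n = 2 each), so that CL minus CH was -0.58 (interval -1.497 to 0.34). The unadjusted p of 0.181 was the lowest of the 6 between CL and CH. Against the 8.44 ± 0.41 of INT, CL differed by -0.71, with an interval of -1.63 to 0.20. With each array left out, CL minus CH lay between -0.67 and -0.49. Its sign could hardly change, since the CL and CH arrays did not overlap. The spread that limma assigned to WRKY20 gave a standard error of 0.39 for each difference. It is shared by the 3 flower types and so includes the wider gap between the INT arrays, the SD within flower types being 0.26 over all 3, and it is also drawn toward that of other probe sets of like level.

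**Figure D2:**
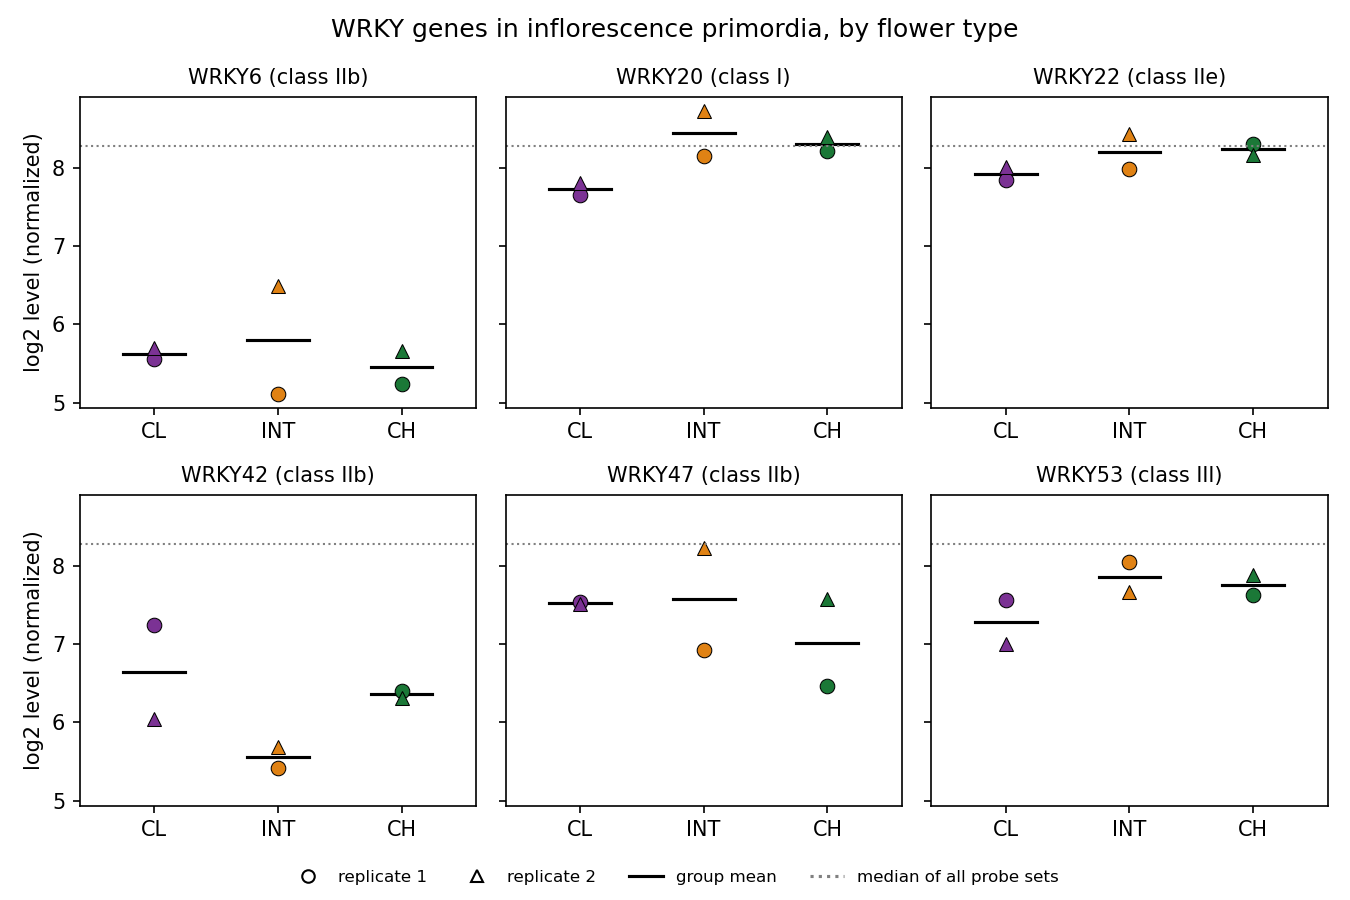
Normalized log2 level (vertical axis) of the 6 WRKY genes on each array, by flower type (CL, INT, CH from left to right), with circles for replicate 1, triangles for replicate 2, bars for group means and a dotted line for the median of all probe sets on an array. WRKY20 has both CL arrays below the other 4, and WRKY47 has replicates more than 1 log2 unit apart in INT and CH.

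Counted over the 6 genes, CL against CH had 3 genes with a higher and 3 with a lower mean in CL, and the median difference was -0.07 log2 units, against -0.01 over all probe sets tested. limma called 0 of 6 genes at an adjusted p of 0.05, where it called 0% of all probe sets, and 0 of 6 had an unadjusted p under 0.05, where 3.53% of all did. The adjusted p was 0.9999 for each of the 6. Both CL arrays lay below both CH arrays for 3 genes, WRKY20, WRKY22 and WRKY53, and above for 0, in the normalized levels; over all probe sets 14.8% lay below and 13.9% above. In the values as deposited 4 genes did not overlap, because both CL arrays of WRKY6 were also above both CH arrays. With 6 genes, this count was not tested.

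INT against CH, which compares the same length of chilling after and before germination, gave 4 genes with a higher and 2 with a lower mean in INT and a median difference of 0.12, against -0.01 over all probe sets. The test called 0 of 6 genes, against 0% of all, and 0 of 6 had an unadjusted p under 0.05, against 4.76% of all. The adjusted p ranged from 0.983 to 0.9996 in limma. Fitted on the 4 INT and CH arrays alone, 1 of 6 had an unadjusted p under 0.05, WRKY42 at 0.0461 in limma. The share of all probe sets in that fit was not recorded. WRKY42 was the only gene whose INT and CH arrays did not overlap, lower in INT, where 17.8% of all probe sets were lower without overlap and 16.4% higher. Without INT replicate 2 the median difference was -0.21.

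CL against INT, 28 against 14 days of chilling after germination, gave 1 gene, WRKY42, with a higher and 5 with a lower mean in CL, and a median difference of -0.23, against 0.0016 over all probe sets. The test called 0 of 6 genes, against 0% of all, and 1 of 6 had an unadjusted p under 0.05, against 4.4% of all. Both CL arrays were below both INT arrays for WRKY20 and WRKY53, where 16% of all probe sets were below, and above for WRKY42, where 17% were, in the normalized levels. In the values as deposited 4 genes did not overlap, WRKY22 being also lower in CL. This comparison shares the CL arrays with CL against CH and the INT arrays with INT against CH, so the low CL values of WRKY20 and WRKY53 and the low INT values of WRKY42 enter both. The median difference was 0.23 without INT replicate 2 and -0.61 without INT replicate 1, so its sign rested on the INT arrays. A moderated F-test over the 3 flower types called 0 of 6 genes, against 0% of all probe sets, and 0 of 6 had an unadjusted p under 0.05, against 4.2% of all, with an adjusted p of 0.996 for each.

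**Figure D3:**
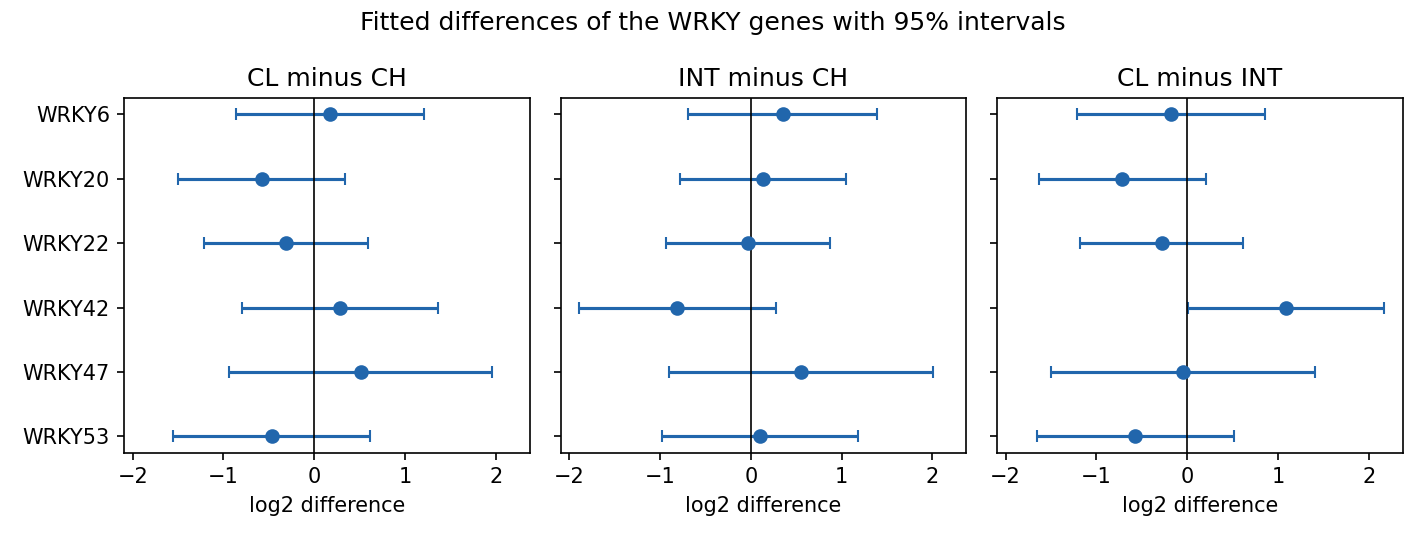
Fitted log2 differences of the 6 WRKY genes (points) with 95% intervals of the limma fit (bars) for CL minus CH, INT minus CH and CL minus INT. Of the 18 intervals, that of WRKY42 in CL minus INT lies just above 0, from 0.0074 to 2.17, and the others span 0.

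The intervals, which are not adjusted for the number of probe sets, reached 0.90 to 1.45 log2 units on either side of a WRKY difference. For the median probe set they reached 0.90. Differences under about that size could not be told from 0 with 2 arrays per group, even before adjustment. A larger one need not pass the adjusted threshold: WRKY42 in CL minus INT, at 1.09, had an adjusted p of 0.985 in limma. A p that misses the threshold here does not show that the flower types had equal levels.

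Spread between replicates differed among the genes. The 3 class IIb genes had SDs within flower types from 0.50 to 0.70 and ranges over the 6 arrays from 1.37 to 1.82 log2 units. The 3 genes of the other classes had SDs from 0.21 to 0.30 and ranges from 0.59 to 1.08, and the median SD over all probe sets was 0.35. The class IIb genes also had the lower RNA signals, with mean levels from 5.62 to 7.37 against 7.63 to 8.15, and the part of signal strength in their spread was not tested.

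Single arrays also set several WRKY values. INT replicate 2 held the highest value of 4 of the 6 genes, WRKY6, WRKY20, WRKY22 and WRKY47, and the lowest of 0, whereas 16.9% of all probe sets were highest and 17.0% lowest on it. For 5 of the 6 genes INT replicate 2 was above INT replicate 1, against 50.7% of all probe sets. The gap between the INT replicates was -1.37 log2 units for WRKY6 and -1.31 for WRKY47 (replicate 1 minus replicate 2), larger than any difference between flower types for these genes. WRKY53 ran the other way, with a gap of 0.37. In CL, WRKY42 had the widest gap, 1.196, and in CH it was WRKY47, at -1.12.

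**Figure D4:**
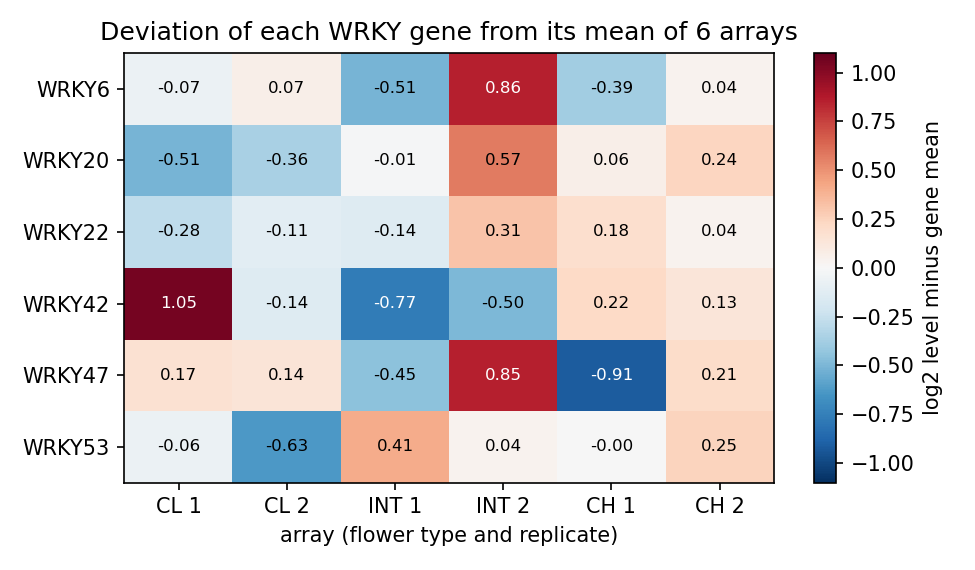
Log2 level of each WRKY gene (rows) on each array (columns, flower type and replicate) minus that gene's mean over the 6 arrays, in red where above and blue where below. INT replicate 2 is above the mean for 5 of 6 genes, by up to 0.86, and CL replicate 1 is 1.05 above for WRKY42.

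Genes that work with the WRKY family were listed for 4 sets, and the annotation named 3 of the 36 entries. IKU1, a VQ-motif protein that pairs with a WRKY factor in Arabidopsis seeds, was named of 11 MAP kinases and WRKY partners, and IKU2, a receptor kinase gene under the same seed factor, of 8 trichome and seed genes. None of 7 salicylic acid genes was named. PDF1.2, a defensin of jasmonate and ethylene signalling, was the 1 named of 10 defence and senescence outputs. 0 of the 3 passed the adjusted threshold in any comparison. PDF1.2 had intensities of 8.22 and 5.33 in CL, 46.3 and 39.9 in INT, and 12.8 and 6.99 in CH. Its INT arrays lay above the other 4, with INT minus CH at 0.89 (interval from 0.32 to 1.46, unadjusted p = 0.00702 in limma) and CL minus INT at -1.02, and adjusted p values of 0.983 and 0.985. It was dim throughout, and its genomic DNA signal lay at percentile 10.4. Over all probe sets 16.4% were higher without overlap in INT than in CH, and 16% in INT than in CL. An unadjusted p under 0.05 in limma was found for 4.76% of all in INT minus CH and 4.4% in CL minus INT. IKU1 had 619.0 and 421.2 in CL, 365.7 and 460.6 in INT, and 599.2 and 437.6 in CH, and IKU2 had 61.3 and 158.1 in CL, 47.4 and 38.4 in INT, and 57.1 and 42.9 in CH. IKU1 overlapped between all flower types, and IKU2 was higher on both CL arrays than on the other 4, CL replicate 2 most of all. The margin was small, 61.3 on CL replicate 1 against 57.1 on CH replicate 1. Over all probe sets 13.9% were higher without overlap in CL than in CH, and 17% in CL than in INT.

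Marker genes of several tissues were read on the same arrays. Of 10 markers of floral meristems and organ primordia 2 were named, UFO with intensities from 83.4 to 581.4 and JAG from 167.3 to 356.1. The mean level of UFO lay at percentile 55.4 of all probe sets and that of JAG at 47.1, which alone does not identify the tissue. The 2 named of 4 leaf photosynthesis markers, RCA and PSAN, had summed intensities of 9482 to 13518 in CL, 12570 to 13833 in INT and 8615 to 10704 in CH. The 4 named of 6 tapetum and pollen markers summed to 990.2 to 1455 in CL, 1505 to 1745 in INT and 996.8 to 1527 in CH. TRY, the 1 named of 4 hair markers, had 62.8 to 129.1 in CL, 56.2 to 93.4 in INT and 100.0 to 164.5 in CH, and 0 of 3 root markers were named. Photosynthesis sums were higher on both INT than on both CH arrays. Of the 2 genes, RCA separated these groups, and PSAN overlapped. RCA was higher on both INT than on both CL arrays too, where 16% of all probe sets were, and PSAN overlapped there as well. AMS and ROXY2, of the tapetum and pollen markers, were also higher on both INT than on both CH arrays, while UFO and TRY were lower on both. JAG, A9 and ROXY1 overlapped between INT and CH. Over all probe sets 16.4% were higher in INT than in CH without overlap and 17.8% lower. ROXY1 was lower on both CL than on both CH arrays, where 14.8% of all probe sets were. The tapetum and pollen sums of INT lay above those of CL by a small margin, from 1505 in INT against up to 1455 in CL. Each of the 4 genes overlapped between CL and INT. The part of these markers in the WRKY values was not tested. Median intensity per RNA array was between 260.8 and 301.8, and the number of arrays limits the precision.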

How the data were processed

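The files held 1 deposited intensity per probe set for 7 ATH1 arrays, 6 of them RNA arrays and 1 a DNA array. Per the labels, this DNA array served the authors to calibrate the RNA arrays, since the probes were designed for Arabidopsis. The deposited values are linear and positive, and their mean was 500.0 on each array when 2% of probe sets at either end were dropped. Which program summarized the probes, and at which DNA threshold, is not stated in those labels. The 64 control probe sets were left out. A constant of 28.2, which is 10% of the median RNA value, was added before log2 was taken. Array medians then spanned 0.19, and quantile normalization was applied. limma 3.58.1 (R 4.3.3) fitted the 22746 remaining probe sets over the 6 RNA arrays, with flower type as the only factor and a trended eBayes step. Two-sided p-values were adjusted over all probe sets by Benjamini and Hochberg's method, and the threshold was 0.05. They measure the spread between samples described as biological replicates. The fit was tested on simulated data, and plots were made with matplotlib 3.10.9 (Python 3.11.15).

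The platform annotation supplied the gene names: 13513 probe sets had 1 gene, 503 had several and 8794 are unnamed here. WRKY classes, pathway lists and marker lists came from general knowledge. Every WRKY gene found is named, other genes come from those lists, and ZAP1 was looked up later. Genes and lists were chosen with earlier results of these data known. The alternatives were 2 other normalizations, 2 other constants, a filter on RNA level, a filter on genomic DNA signal, 2 other variance models, a replicate block, only the 4 arrays compared, and each array left out.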

Additional observations from a re-analysis of the deposited data

How the results depend on the processing

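The call of 0 of 6 WRKY genes held in each comparison and in the F-test under every alternative run. All 6 lie below the median level, so the filter on dim probe sets left none, and with 1 probe set per gene the choice of probe set had no alternative. Of the 18 gene differences, 8 kept their sign in all settings, among them the CL minus CH and CL minus INT differences of WRKY20, WRKY22 and WRKY53. Except for WRKY22 in CL minus INT, those 8 were between groups without overlap, so leaving out 1 array could hardly reverse them. The variance models, the block and the genomic DNA filter leave a gene's difference unchanged. Kept signs thus mostly restate the lack of overlap. Sizes moved with single arrays left out, in CL minus INT from -1.01 to -0.42 for WRKY20, -0.51 to -0.056 for WRKY22 and -0.84 to -0.29 for WRKY53. The 14 values of opposite sign came from leaving out 1 array, except that of WRKY6 in CL minus INT with a constant of 1 (0.036); the cause was not tested. With arrays left out, where a lone array is assumed to vary like the other groups, CL minus CH ranged from -0.034 to 0.39 for WRKY6, from -0.32 to 0.88 for WRKY42 and from -0.049 to 1.07 for WRKY47. INT minus CH ranged from -0.33 to 1.03 for WRKY6, -0.16 to 0.42 for WRKY20, -0.26 to 0.20 for WRKY22, -0.10 to 1.21 for WRKY47 and -0.085 to 0.29 for WRKY53. CL minus INT ranged from -0.85 to 0.51 for WRKY6 and -0.70 to 0.61 for WRKY47. The median of the 6 genes ranged from -0.27 to -0.04 in CL minus CH, -0.21 to 0.31 in INT minus CH and -0.61 to 0.23 in CL minus INT, and the median level from 7.40 to 7.58. Over the 5 genes with a genomic DNA signal above the median, the median difference was -0.31 in CL minus CH, 0.13 in INT minus CH and -0.28 in CL minus INT. A constant equal to the median RNA value put that level at 8.79, by its construction. The unadjusted p of WRKY42 in CL minus INT stayed under 0.05 with median scaling, without the trend and without CL replicate 2, and in none of the other 11 settings that keep its probe set. Replicate numbers did not pair the samples of all flower types. Replicate differences correlated at 0.25 between CL and CH, -0.05 between INT and CH and -0.05 between CL and INT. In levels over all probe sets, CL and CH arrays of the same replicate number correlated at 0.931 (replicate 1) and 0.939 (replicate 2). The 2 CL arrays correlated at 0.914 and the 2 CH arrays at 0.918, while CL replicate 2 and INT replicate 1 reached 0.936. The main CL minus CH test is unpaired, and a fit pairing CL with CH alone was not run. With the replicate block 0 of 6 genes were called in each comparison, and the share called over all probe sets was not recorded. The design is balanced, so the block cannot move the median differences of -0.07, 0.12 and -0.23, and only the p-values could change.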

Other observations

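ZAP1, a zinc-dependent activator known in Arabidopsis as the class I factor WRKY1, carries that other symbol in the annotation and so was not among the 6 genes; it was looked up after their values had been seen. Its intensities were 62.8 and 548.1 in CL, 694.1 and 568.8 in INT, and 346.8 and 749.2 in CH. CL replicate 1 lay far below the other 5 arrays. In the normalized levels the groups overlapped in every comparison, CL and INT only narrowly, with CL replicate 2 at 9.224 and INT replicate 2 at 9.217. In the values as deposited both CL arrays were below both INT arrays. Its genomic DNA intensity of 1238 lay at percentile 91.4 and its mean RNA level of 8.75 at percentile 62.5. CL minus CH was -1.17 log2 units, with an interval from -3.05 to 0.70, and limma gave an adjusted p of 0.9999. UFO, the floral meristem marker, had its lowest intensity on the same array, 83.4 on CL replicate 1 against 485.3 on CL replicate 2. JAG, the other floral marker named, went the other way, with 274.1 on CL replicate 1 against 167.3 on CL replicate 2. Over all probe sets 17.6% had their lowest level on CL replicate 1.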
